A study of Mus musculus with 6 samples.

Results

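The miRNAs described here are miR-320 and miR-484, which are made without the Drosha step that most miRNAs need. The assays were chosen by name alone, as every assay on the TaqMan qPCR cards (A and B) for miR-320, miR-484 or miR-877, of any arm or species, that does not end in #. This left 2 of the 750 miRNA assays, mmu-miR-320 and mmu-miR-484, both among the 375 on card A. For miR-877 there was 0 such assay, and its only assay, mmu-miR-877#, is given for comparison. The # marks an assay for the passenger strand, the less used arm of the hairpin, so the other arm of miR-877 was not measured. The 6 samples were pools of blastocysts from superovulated and mated 5-week-old Kunming females, 3 vitrified (V1, V2 and V3) and 3 fresh (F1, F2 and F3). Embryos of both groups were kept in CZB medium, and the fresh pools served as the untreated control. Vitrified blastocysts had been frozen in liquid nitrogen in open-pulled straws, with EDFS30 as the cryoprotectant (25 seconds) after a pretreatment of 30 seconds with EG and DMSO (ethylene glycol and dimethyl sulfoxide). Sucrose at 0.5 M (5 minutes) served for thawing, before a return to CZB. Each value is a threshold cycle (Ct), the PCR cycle at which the fluorescence of a well crosses a set threshold, so that a later Ct means less template. The comparison asks whether the level of these miRNAs differed between vitrified and fresh blastocysts.

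Most miRNAs are cut out of a long nuclear transcript by Drosha and its partner DGCR8, and the resulting hairpin is trimmed by Dicer in the cytoplasm. For miR-320, and likewise for miR-484, RNA polymerase II starts transcription at the hairpin itself, which leaves the nucleus with a 5′ cap and goes straight to Dicer. A mirtron such as miR-877 is a short intron, released by the spliceosome and folded into a hairpin, so that the term fits miR-877 and not the other pair in the strict sense. Mouse embryonic stem cells without Dgcr8 are known to keep such small RNAs, while those without Dicer lose them.

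The sequences below are shown for this difference in origin and were taken from RefSeq on the GRCm38.p6 build, where 1 of the 2 assayed miRNAs matched. In the Mir484 hairpin (chr16:14159626-14159692, plus strand) the capitals mark the mature miRNA, and in the mature miRNA (chr16:14159630-14159651) they mark the seed, bases 2 to 8. In the Mir877 hairpin (chr17:35960730-35960814, minus strand) they mark the first and last bases, the GU and AG that bound an intron.
Mir484 hairpin: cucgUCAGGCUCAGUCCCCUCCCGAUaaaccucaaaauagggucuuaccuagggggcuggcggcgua
mmu-miR-484: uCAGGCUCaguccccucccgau
Mir877 hairpin: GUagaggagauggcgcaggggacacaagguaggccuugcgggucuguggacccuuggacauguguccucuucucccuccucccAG

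The Mir484 hairpin does not have these ends, whereas 30 of the 1005 mouse hairpins in the RefSeq table (2.99%) have both, Mir877 among them. Mir877 lies inside Abcf1, which encodes an ATP-binding cassette protein of translation. Mir320 and Mir484 lie inside no other gene of that annotation. The gene nearest to Mir320 is Polr3d, which encodes a subunit of RNA polymerase III, and those nearest to Mir484 are Marf1, a regulator of meiosis in oocytes, and Nde1, a centrosomal protein. Of the 1679 mature mouse miRNAs in the table, mmu-miR-484 is the 1 with its seed. Its G and C content is 63.6%, against a median of 52.2% over those miRNAs.

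The pools did not yield equal numbers of determined assays. A Ct under 40 was found for 218 miRNA assays in V1 and 140 in F1, and for 382 to 409 in each of the other 4 pools. The 16 assays for miR-290 to miR-295, the miRNAs that mark the blastocyst, were undetermined in V1 and F1, while 8 to 10 of them were determined in each of the others. Of 6 assays for miRNAs of blood cells, 3 to 6 were determined per pool, and of 7 assays for miRNAs of ciliated epithelium such as that of the oviduct, 5 or 6. The summed level of the blood list against U6 (the sum of 2 to the power of −ΔCt) ran from 0.00467 to 0.107 in the vitrified pools and from 0.00176 to 0.0879 in the fresh pools. For the ciliated list it ran from 0.00342 to 0.0378 and from 0.00567 to 0.0101. Assays for miRNAs of other tissues were determined too. Of 4 assays for muscle miRNAs, 2 to 4 were determined per pool. Their summed level ran from 0.000207 to 0.00583 in the vitrified and from 0.000118 to 0.0161 in the fresh pools. The neuronal mmu-miR-124 was determined in V2, V3, F2 and F3, and mmu-miR-122 of liver in V3 and F2. The part of such cells in the results below was not tested. In pooled blastocysts, fewer cells of a type and less RNA per cell cannot be told apart.

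Both miR-320 and miR-484 were determined in all 6 pools, as were 80 of the 375 miRNA assays of card A. The Ct of mmu-miR-320 was 26.48, 23.91 and 25.00 in the vitrified pools V1, V2 and V3. In the fresh pools F1, F2 and F3 it was 26.45, 24.17 and 23.02. Its latest values were those of V1 and F1, its earliest that of F3, and the 2 groups overlapped.

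The Ct of mmu-miR-484 was 23.82, 22.48 and 23.39 in V1, V2 and V3. In F1, F2 and F3 it was 23.54, 22.36 and 22.18. Here too V1 and F1 were the latest and F3 the earliest, the groups overlapped, and all 6 values lay within a narrower range than those of mmu-miR-320.

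**Figure D1:**
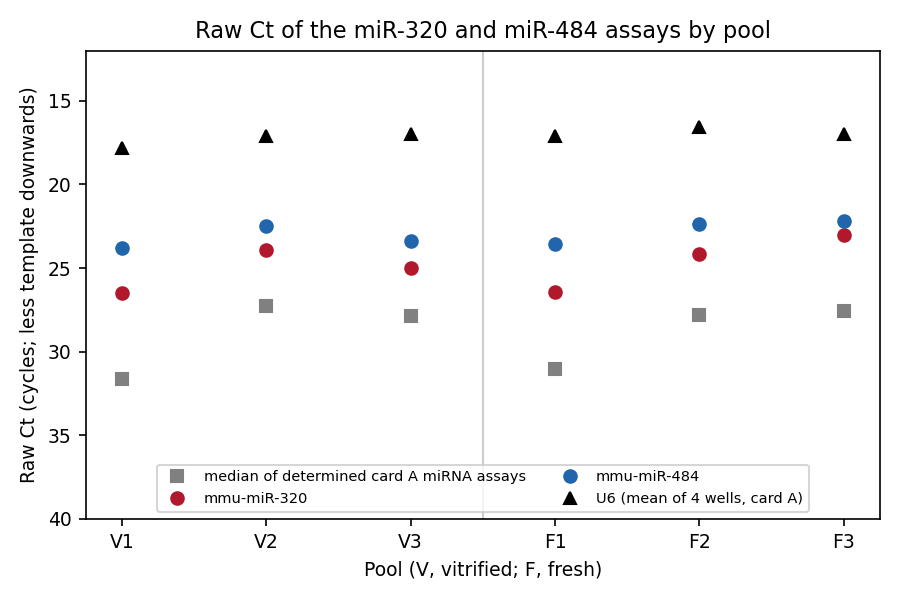
Raw Ct in cycles (vertical axis, inverted so that more template is higher) of mmu-miR-320, mmu-miR-484, U6 and the median of the determined card A miRNA assays in each of the 6 pools. The U6 point is the mean of 4 wells and the other points are single wells or medians; the assay median is 31.62 cycles in V1 and 31.05 in F1 and between 27.29 and 27.89 in the other pools, while mmu-miR-484 stays between 22.18 and 23.82.

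Levels were then expressed against U6 snRNA, whose mean over the 4 wells of the card was subtracted to give ΔCt. On card A, the Ct of U6 averaged 17.30 ± 0.46 in the 3 vitrified and 16.87 ± 0.26 in the 3 fresh pools (mean ± SD).

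The ΔCt of mmu-miR-320 was 8.66, 6.81 and 8.03 in V1, V2 and V3, and 9.37, 7.58 and 6.06 in F1, F2 and F3. The mean ± SD was 7.83 ± 0.94 for the 3 vitrified pools and 7.67 ± 1.66 for the 3 fresh pools. On the log2 scale the level was thus −0.16 in vitrified relative to fresh blastocysts, with a standard error of 1.16 and a 95% confidence interval from −2.96 to 2.63 (limma, adjusted p = 0.998). As a ratio of vitrified to fresh blastocysts it is 0.894, with an interval from 0.129 to 6.20. The pools of either group spread more widely than that, and a 2-sided exact permutation test, which cannot go below 0.1 with 3 against 3 pools, gave p = 0.9.

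The ΔCt of mmu-miR-484 was 6.00, 5.37 and 6.43 in V1, V2 and V3, and 6.46, 5.78 and 5.22 in F1, F2 and F3. The mean ± SD was 5.93 ± 0.53 for the vitrified and 5.82 ± 0.62 for the fresh pools, 3 in each group. The log2 fold change was −0.12, with a standard error of 0.84 and a 95% confidence interval from −2.15 to 1.92 (limma, adjusted p = 0.998). The ratio of vitrified to fresh blastocysts is 0.923, with an interval from 0.225 to 3.78, so that a change of 2-fold in either direction lies within it. Here too the pools of a group lay further apart than the group means, and the exact permutation test (2-sided) gave p = 0.8.

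Neither miRNA was thus called. Over the whole table, 0 of the 335 assays tested (0%) had an adjusted p-value under 0.05 in limma, and 1 (0.299%) had an unadjusted p-value under 0.05. An unmoderated test on the same values gave 0 and 9. The median log2 fold change was −0.14 for the pair and −0.05 for all assays tested, and the median size of the change over all assays was 0.85, whichever its direction. A smaller change than that of mmu-miR-320 was found for 39 assays, and a smaller change than that of mmu-miR-484 for 30.

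**Figure D2:**
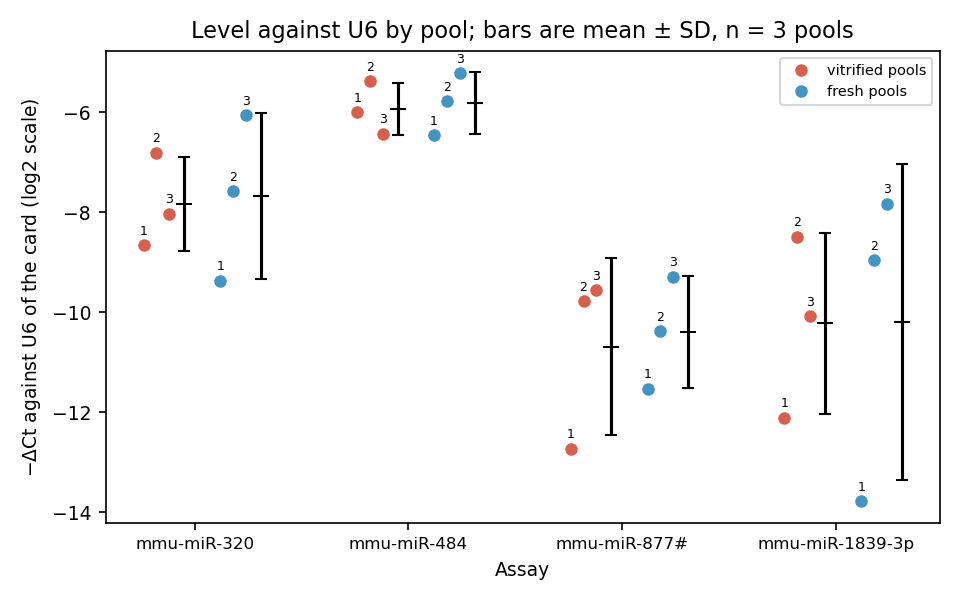
Level against U6 as −ΔCt on the log2 scale (vertical axis) of mmu-miR-320, mmu-miR-484, mmu-miR-877# and mmu-miR-1839-3p in vitrified and fresh pools. Each numbered point is a pool and the bars are mean ± SD over 3 pools; the groups overlap for every assay, and mmu-miR-484 has the smallest SDs, 0.53 and 0.62.

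The sign of these small differences depended on single pools. Between pools of the same number, the −ΔCt of mmu-miR-320 was higher in V1 than in F1 by 0.71 and in V2 than in F2 by 0.77, and the difference was −1.97 for V3 and F3. For mmu-miR-484 these differences were 0.46, 0.40 and −1.21, so that for both miRNAs the pools numbered 3 went against the other pairs. Without V1 the log2 fold change of mmu-miR-320 was 0.25, and without F3 it was 0.64. For mmu-miR-484 it was 0.13 without V3 and 0.18 without F3. In the pools numbered 2 and 3 alone it was −0.60 for mmu-miR-320 and −0.40 for mmu-miR-484, with adjusted p = 0.912 from limma for both.

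The choice of reference moved both values by the same amount, since both assays are on card A. With the mean of snoRNA135 and snoRNA202, the other control RNAs of card A determined in all pools, in place of U6, mmu-miR-320 had a log2 fold change of −2.03 with a standard error of 2.93, and mmu-miR-484 of −1.98 with a standard error of 3.44. Every card A assay determined in all pools shifted by −1.87 under that reference, and the median over all assays tested was then −0.78. The values were −0.54 and −0.49 against the mean of the miRNA assays determined in all pools, for which the median over all assays tested was 0.12, and −0.58 and −0.54 without a reference, for which it was −0.35. The share of assays higher in vitrified blastocysts was 48.1% with U6, 24.2% with the controls, 54.9% with the mean of the miRNA assays and 40.0% without a reference.

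**Figure D3:**
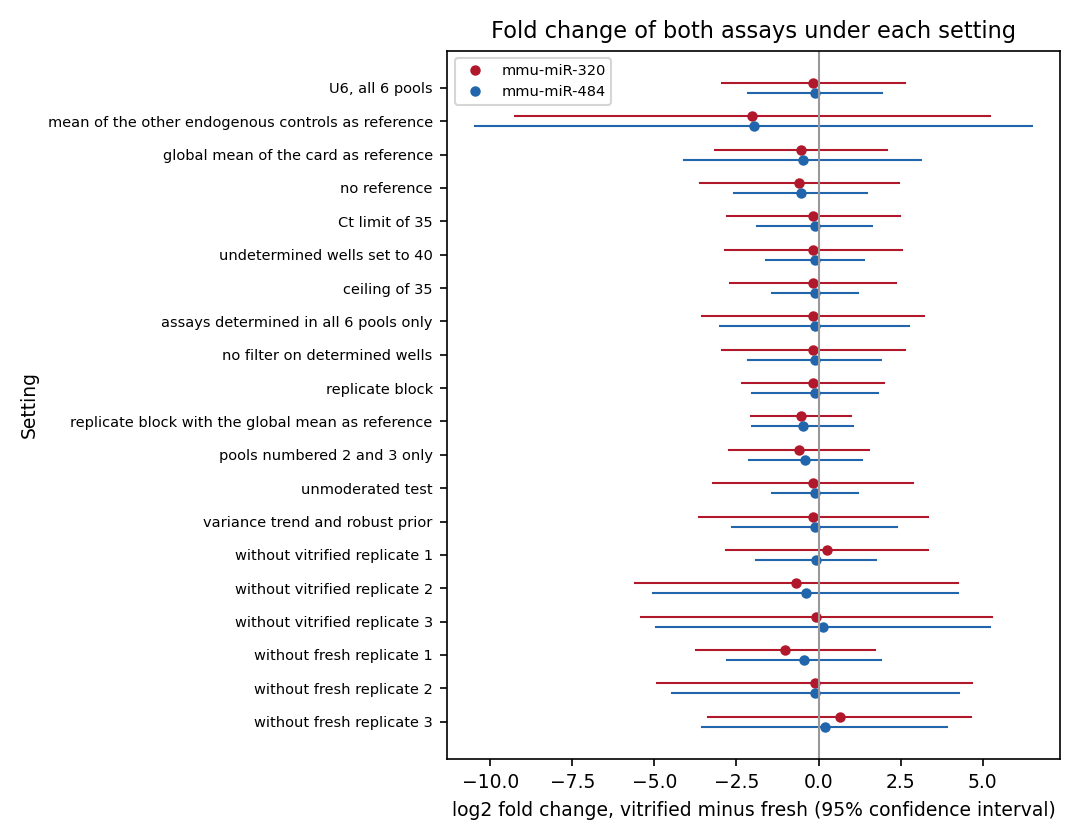
Log2 fold change of vitrified minus fresh pools (horizontal axis) with its 95% confidence interval for mmu-miR-320 and mmu-miR-484 under each setting of the limma comparison. All 40 intervals include 0, and the points lie between −2.03 and 0.64.

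V1 and F1, which had the fewest determined assays, differed from the other pools in how late the miRNA assays crossed the threshold. Over the 80 card A assays determined in all pools, V1 lagged behind the V2 and V3 average by a median of 4.64 cycles. F1 lagged behind the F2 and F3 average by a median of 6.38 cycles. On card A 140 miRNA assays were determined in V1 and 88 in F1, against 212 to 239 in each of the other pools. Assays undetermined in V1 or F1 have no delay and enter neither these medians nor the ranks below. U6 on the same card was later by 0.78 cycles in V1 and by 0.31 in F1.

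Both Drosha-independent miRNAs were delayed less than that median. The delay of mmu-miR-484 was 0.88 cycles in V1 and 1.27 in F1, which is rank 12 and rank 14 of the 80 assays counted from the smallest delay. That of mmu-miR-320 was 2.03 cycles in V1 and 2.86 in F1, at rank 18 and rank 19. The delays of the 80 assays spread from −6.70 to 8.81 cycles in V1 and from −6.03 to 13.07 in F1, and those of 9 and 6 assays were below 0. Other miRNAs were thus delayed as little or less, and these ranks are a description of the 6 pools, with no test.

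**Figure D4:**
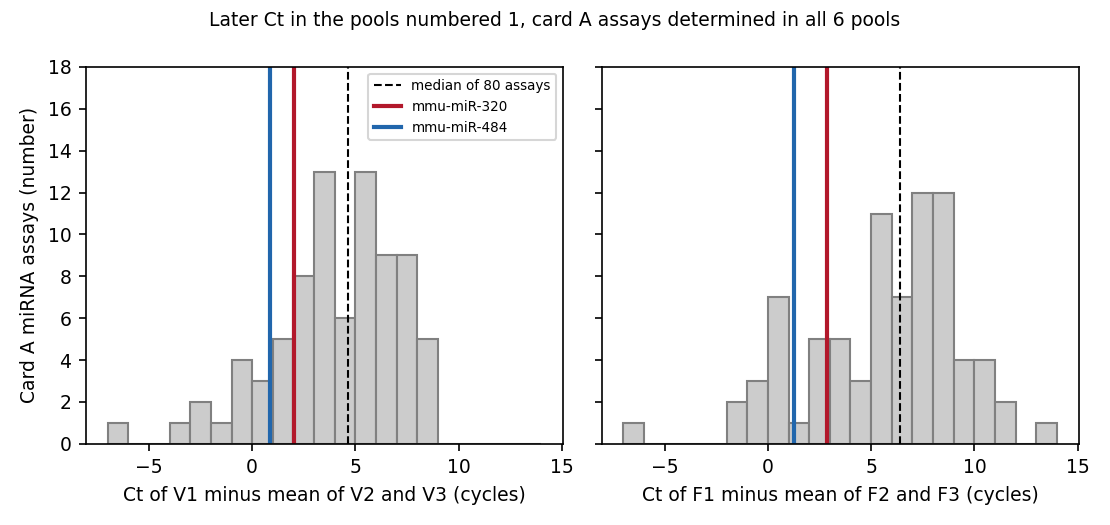
Number of card A miRNA assays (vertical axis) by the Ct of V1 minus the mean of V2 and V3 and of F1 minus the mean of F2 and F3, in cycles (horizontal axes), for the 80 assays determined in all 6 pools. The dashed line is the median, 4.64 and 6.38 cycles, and the coloured lines of mmu-miR-320 and mmu-miR-484 lie to the left of it in both panels.

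The place of both miRNAs within a pool moved accordingly. Among the 80 assays, ordered from the earliest Ct, mmu-miR-484 stood at rank 4 in V1 and rank 3 in F1, and at rank 21 to 24 in the other 4 pools. The rank of mmu-miR-320 was 20 in V1 and 12 in F1, and 32 to 43 in the others. Such a rank orders wells by Ct, and since assays differ in efficiency and in pre-amplification it is no order of abundance.

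The levels of both miRNAs against U6 varied little between pools of a group, compared with other assays. This spread includes the delay of V1 and F1, so it is not a separate observation. The pooled SD within groups was 0.58 for mmu-miR-484, rank 2 of the 80 assays from the smallest, and 1.35 for mmu-miR-320, rank 14, against a median of 3.02. The standard error of the limma comparison, which had a median of 1.51 over the 335 assays, was smaller than that of mmu-miR-484 for 2 assays and smaller than that of mmu-miR-320 for 55. Only 122 miRNA assays were determined in all 6 pools, so the others among the 335 were compared over fewer pools. Their standard errors are thus not on equal terms with those of the 2 miRNAs.

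The 2 miRNAs were also set against each other, which needs no reference RNA because both wells are on the same card. The Ct of mmu-miR-320 was later than that of mmu-miR-484 in 6 of 6 pools, by 2.66, 1.43 and 1.60 cycles in the vitrified and by 2.91, 1.81 and 0.84 cycles in the fresh pools numbered 1, 2 and 3. The gap was widest in V1 and F1 and narrowest in F3. It averaged 1.90 ± 0.67 cycles in the 3 vitrified and 1.85 ± 1.04 cycles in the 3 fresh pools (mean ± SD). These means differed by 0.05 cycles, less than the pools of a group did (exact permutation test, 2-sided, p = 1.0). Without V1 this difference was −0.34 cycles, and without F3 it was −0.46.

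Of the 7 other assays for miRNAs known to skip Drosha or Dicer, 4 could be tested and 0 were called. The mirtron assays mmu-miR-702, mmu-miR-1224 and mmu-miR-1981 were undetermined in all 6 pools. The passenger-strand assay of the mirtron miR-877, mmu-miR-877# on card B, was determined in all of them. Its Ct was 30.39, 27.50 and 26.08 in V1, V2 and V3, and 28.42, 27.32 and 26.45 in F1, F2 and F3. V1 was the latest, the other values overlapped, and the log2 fold change was −0.29, with a standard error of 1.22 (limma, adjusted p = 0.998). In the pools numbered 2 and 3 alone it was 0.16.

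The miRNA miR-1839 comes from a small nucleolar RNA. Its assay mmu-miR-1839-3p had a Ct of 29.76, 26.21 and 26.59 in the vitrified pools numbered 1 to 3 and of 30.67, 25.89 and 24.99 in the fresh pools. Its log2 fold change was −0.04, with a standard error of 1.84 (limma, adjusted p = 0.998), and it was 0.10 against the mean of the miRNA assays. Its other arm, mmu-miR-1839-5p, was at 33.38, 28.90 and 28.13 in the vitrified pools, undetermined in F1, and at 29.16 in F2 and 29.45 in F3.

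The erythroid mmu-miR-451 needs Drosha but is cut by Ago2 in place of Dicer. Its Ct was 33.09, 22.68 and 21.91 in the vitrified pools, undetermined in F1, 22.82 in F2 and 23.54 in F3. V1 was the latest by far, and the other determined values lay close together. The log2 fold changes of mmu-miR-1839-5p and mmu-miR-451 were −0.58 and −2.19, with standard errors of 1.68 and 3.37 and an adjusted p-value of 0.998 in limma for both. In the pools numbered 2 and 3 alone they were 0.86 and 1.15.

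On card B the delay of V1 and F1 had medians of 1.80 and 1.67 cycles over the 42 assays determined in all pools. On that card 78 miRNA assays were determined in V1 and 52 in F1, against 170 to 176 in each of the other pools. Assays undetermined in V1 or F1 have no delay and do not enter these medians. The delay of mmu-miR-877# was 3.60 cycles in V1 (rank 29) and 1.53 in F1 (rank 19). That of mmu-miR-1839-3p was 3.36 cycles (rank 28) and 5.23 (rank 35). Both were thus above the median of those 42 assays in V1, and in F1 mmu-miR-877# was slightly below it. Where they stand among all assays of the card cannot be told. The cards differ in their medians, and the difference from mmu-miR-320 and mmu-miR-484 was not tested.

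The assays with the most similar profiles were sought among the 121 others determined in all pools, by the root mean square difference of −ΔCt over the 6 pools after each assay was centred on its own mean. For mmu-miR-320 these were mmu-miR-193b at 0.19 cycles, mmu-miR-411 at 0.37, mmu-miR-186 at 0.38, hsa-miR-30a-3p at 0.39 and mmu-miR-146a at 0.40, against a median of 1.60. For mmu-miR-484 they were hsa-miR-200c at 0.35, mmu-miR-200c at 0.41, hsa-miR-140-3p at 0.44, hsa-miR-200b at 0.44 and mmu-miR-155 at 0.47, against a median of 2.07. Both assays of the epithelial miR-200c are in that list, 1 from each card, but of the 2 assays of miR-200b only the card B assay is. The delays of V1 and F1 were 0.79 and 1.81 cycles for hsa-miR-200b on card B and 4.83 and 8.42 cycles for mmu-miR-200b on card A.

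The Drosha-independent pair differed by 0.71 cycles, which put mmu-miR-484 at rank 17 for mmu-miR-320 and mmu-miR-320 at rank 14 for mmu-miR-484. Their correlation over the 6 pools was 0.89, a value that carries the shared U6 wells and the shared delay of V1 and F1. For the 5 assays listed for mmu-miR-320 this correlation ran from 0.93 to 0.99. For those of mmu-miR-484 it was 0.92 with mmu-miR-200c, 0.80 to 0.83 with the card B assays and 0.46 with mmu-miR-155. By correlation, mmu-miR-320 was thus closer to mmu-miR-484 than all of these but mmu-miR-200c. Without a reference, 5 of the 5 assays listed for mmu-miR-320 and 3 of the 5 for mmu-miR-484 were listed again, and with the mean of the miRNA assays as the reference 4 and 2 were.

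**Figure D5:**
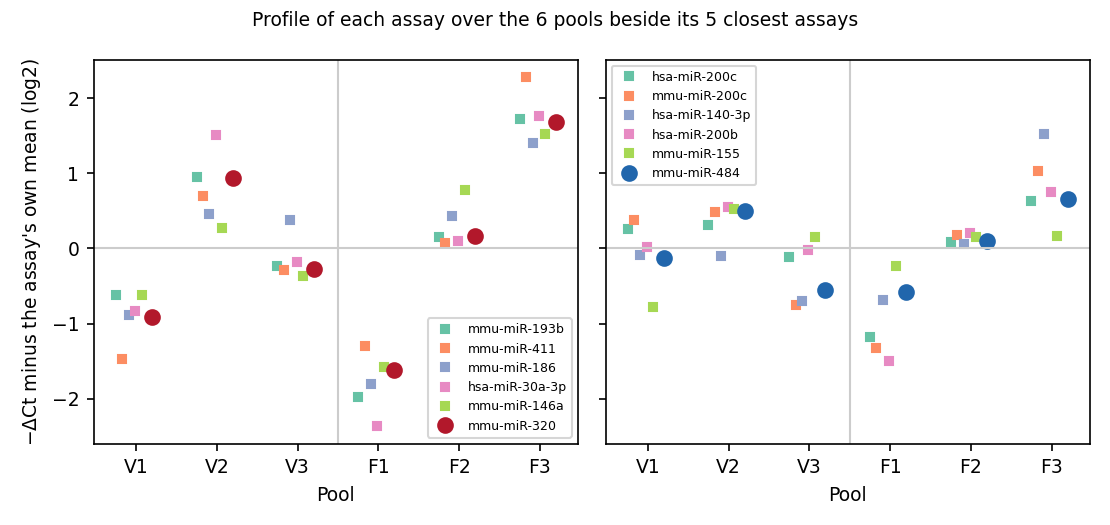
Level as −ΔCt minus the assay's own mean over the 6 pools (vertical axis, log2 scale) in each pool (horizontal axis), for mmu-miR-320 with its 5 closest assays and mmu-miR-484 with its own. Points are single wells, shifted sideways for sight; mmu-miR-320 is lowest in F1 and highest in F3, where its closest assays are highest too, and the points of mmu-miR-484 stay closer to 0.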

How the data were processed

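Total RNA (30 ng per pool) was reverse transcribed, pre-amplified and run on rodent TaqMan miRNA cards (A and B) by the authors, who took the Ct of each well with RQ Manager and deposited raw Ct values without normalization. A second deposited table with the authors' own fold changes was not used. A well that was undetermined or at 40 cycles or later was excluded, U6 of the same card and pool was subtracted, and limma 3.58.1 (lmFit, then eBayes) in R 4.3.3 compared the groups for assays determined in 2 or more pools of each, with Benjamini-Hochberg adjustment over all miRNA assays tested. The step was checked on simulated data with independent values, no undetermined wells and no late pools. That check thus does not cover pools such as V1 and F1. Differences of single assays were compared by 2-sided exact permutation tests over the 20 arrangements of the pools, with scipy 1.17.1. Further steps used Python 3.11.15, pandas 2.3.3, numpy 2.4.6 and matplotlib 3.10.9. The labels speak of triplicate measurement, but each assay has 1 Ct per pool, so precision is limited by the 3 pools in each group.

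Samples were grouped as vitrified or fresh from their titles, and 0 wells had the same Ct in 2 pools of a group. The tests given are unpaired. Deviations from the group means correlated between pools of the same number in the labels (0.80, 0.78 and 0.67 over 122 assays), so a comparison with the number as a block was run as an alternative. In this check the deviations of a group sum to 0, so late V1 and F1 alone can make the other pools of both groups deviate together. Correlations between pools of different numbers were not computed, so the check cannot show that the numbers are pairs. The assays named were both members, mmu-miR-877#, a list of miRNAs known to skip Drosha or Dicer, and the 5 assays with the profile nearest to each member. The members, lists and tests were chosen with earlier results of these data known. Alternatives were other references, other treatments of late and undetermined wells, other filters, pool subsets, the block and other variance estimates.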

Additional observations from a re-analysis of the deposited data

How the results depend on the processing

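In none of the 19 alternatives did limma give an assay an adjusted p-value under 0.05. The unadjusted count, 1 of 335 with U6 and all pools, was 24 of 330 with the replicate block and the mean of the miRNA assays as reference, 16 of 326 in the pools numbered 2 and 3, and 10 of 326 without V1. The log2 fold changes of mmu-miR-320 and mmu-miR-484 kept their negative sign under the 13 alternatives that kept or paired all pools or used the pools numbered 2 and 3. Many of these could not turn the sign, since both assays were determined before 35 cycles in all 6 pools. Other treatments of late wells, other filters, other variance estimates and the block against U6 left the values at −0.16 and −0.12. Only the standard errors moved there. For mmu-miR-320 they ran from 0.89 with the block to 1.46 with a variance trend and robust prior. For mmu-miR-484 they ran from 0.47 in the unmoderated test to 1.22 with only the assays determined in all 6 pools, and the block gave 0.79. Among the 13, these fold changes could move only with another reference or in the pools numbered 2 and 3. With each pool left out in turn they ranged from −1.01 to 0.64 and from −0.44 to 0.18, with the sign turned for 2 of the 6 pools in each case. The adjusted p-value was between 0.836 and 0.998 for mmu-miR-320 and between 0.877 and 0.998 for mmu-miR-484. The difference in Ct between the 2 assays ranged from −0.46 to 0.58 cycles with each pool left out, and was 0.05 in the paired comparison (exact permutation p = 1.0, where 3 pairs cannot give less than 0.25). With each pool left out, mmu-miR-877# ranged from −0.86 to 0.73 and mmu-miR-1839-3p from −1.83 to 1.15. With V1, V2, V3 or F1 left out, mmu-miR-1839-5p ranged from −1.41 to 0.86 and mmu-miR-451 from −4.01 to 1.15; without F2 or F3 neither had enough fresh pools to be tested. The sign also turned for mmu-miR-877# in the pools numbered 2 and 3 (0.16) and for mmu-miR-1839-3p with the mean of the miRNA assays as reference (0.10). For mmu-miR-451 it turned with 40 cycles entered for undetermined wells (3.32), with values capped at 35 (1.65), with the replicate block (1.15) and in the pools numbered 2 and 3 (1.15). The value of mmu-miR-1839-5p was 1.23 with the other controls as reference, 0.12 with the mean of the miRNA assays, 3.04 with 40 entered for undetermined wells, 1.37 with the cap at 35, and 0.86 with the replicate block and in the pools numbered 2 and 3. The lists of assays with the most similar profiles under other references were an alternative chosen after seeing the data. The fold changes of the assays in these lists are not given here.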
